A study of Rattus norvegicus with 21 samples.

Results

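Genes of inflammation, namely the cytokine gene Il6, the chemokine genes Ccl2, Cxcl1 and Cxcl10, the adhesion molecule genes Icam1 and Vcam1, the prostaglandin synthase gene Ptgs2 and the inhibitor gene Nfkbia, were followed through an experiment in neonatal rat ventricular myocytes (NRVMs), cultured heart muscle cells of newborn rats. They were chosen by Ensembl ID as targets of the transcription factor NF-kB that KLF2 restrains in endothelium, and all 8 were present among the 30560 IDs of both count tables. The IDs are ENSRNOG00000010278 for Il6, ENSRNOG00000007159 for Ccl2, ENSRNOG00000002802 for Cxcl1, ENSRNOG00000022256 for Cxcl10, ENSRNOG00000020679 for Icam1, ENSRNOG00000014333 for Vcam1, ENSRNOG00000002525 for Ptgs2 and ENSRNOG00000007390 for Nfkbia. The symbols come with that choice, because neither the files nor the reference tables pair the IDs with names. RNA was sequenced in 20 libraries. Knockdown used a small interfering RNA, with siNeg as negative control and siKlf2 against Klf2, each without and with phenylephrine (PE), 2 libraries per group. Overexpression used adenovirus, with Ad-GFP (here AdGFP), carrying green fluorescent protein, as control and Ad-Klf2 (here AdKlf2), each without and with PE, 3 libraries per group.

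PE is an agonist of α1-adrenergic receptors that makes cultured myocytes grow, and it was given at 100 µM for 36 h. In the knockdown experiment the RNA interference preceded PE by 12 h. In the other experiment PE was present for 12 h before the virus, and the infection lasted 24 h. Every group therefore carried either a transfected RNA or a virus, and untouched cells are not part of any comparison. Nothing in the labels ties a replicate to its own culture or litter, and p-values therefore reflect only how far these libraries spread, which may be technical.

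NF-kB is a family of transcription factors held in the cytoplasm by inhibitor proteins such as the product of Nfkbia. When the inhibitor is degraded, NF-kB enters the nucleus and switches on cytokines, chemokines, adhesion molecules and its own inhibitor, which closes a feedback loop. KLF2 is a zinc finger transcription factor induced by laminar flow in endothelial cells, where it is known to limit the induction of these genes. In the heart, Ccl2 attracts monocytes, Cxcl1 neutrophils and Cxcl10 T cells, Icam1 and Vcam1 bind integrins on leukocytes, and interleukin-6 signals to myocytes and fibroblasts.

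Promoter sequences are shown for 4 of the 7 members that fell after knockdown, Il6, Cxcl1, Cxcl10 and Vcam1, each with a match of the NF-kB motif. Of the others that fell, Nfkbia had a match, Icam1 had no exact match and Ccl2 has no entry. Ptgs2, which was not called after knockdown, had no exact match either. A link between the motif and the fall was not tested. They are the 250 bases before the start of the gene, 5′ to 3′ on the coding strand, from RefSeq on build GRCr8, which is not the build of the counts. Capitals mark exact matches of the κB consensus GGGRNNYYCC, the decameric site bound by NF-kB, searched on both strands. In it R is A or G, Y is C or T and N is any base. Sites that depart from it are not marked.
Il6 (chr4:5894576-5894825, minus strand): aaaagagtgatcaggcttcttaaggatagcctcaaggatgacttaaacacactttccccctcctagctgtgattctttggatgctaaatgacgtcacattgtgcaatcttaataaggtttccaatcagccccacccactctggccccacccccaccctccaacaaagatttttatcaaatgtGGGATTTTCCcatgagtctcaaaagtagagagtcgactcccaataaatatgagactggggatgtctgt
Cxcl1 (chr14:17479322-17479571, minus strand): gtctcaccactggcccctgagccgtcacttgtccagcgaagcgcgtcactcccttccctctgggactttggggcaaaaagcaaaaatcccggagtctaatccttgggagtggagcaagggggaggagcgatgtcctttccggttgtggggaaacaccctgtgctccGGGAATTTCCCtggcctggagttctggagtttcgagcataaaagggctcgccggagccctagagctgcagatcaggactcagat
Cxcl10 (chr14:15988816-15989065, plus strand): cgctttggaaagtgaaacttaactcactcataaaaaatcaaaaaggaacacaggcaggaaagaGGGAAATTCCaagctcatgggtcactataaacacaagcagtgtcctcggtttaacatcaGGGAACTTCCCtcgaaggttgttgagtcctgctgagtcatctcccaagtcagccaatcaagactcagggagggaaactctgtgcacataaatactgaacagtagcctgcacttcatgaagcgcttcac
Vcam1 (chr2:206742784-206743033, minus strand): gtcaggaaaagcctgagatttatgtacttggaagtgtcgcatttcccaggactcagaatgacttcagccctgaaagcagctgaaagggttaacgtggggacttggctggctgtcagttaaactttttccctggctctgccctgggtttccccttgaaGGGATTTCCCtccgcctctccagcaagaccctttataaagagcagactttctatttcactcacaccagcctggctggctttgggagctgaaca

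The Il6 match lies 68 to 59 bases upstream of the start. Cxcl1 has 2 matches that overlap on opposite strands, between 84 and 74 bases upstream. Cxcl10 has 3 matches, 1 at 187 to 178 bases and an overlapping pair between 128 and 118 bases upstream. The Vcam1 match reads as a κB site on both strands, 93 to 84 bases upstream, and is counted once. Of the 7 members with an entry, 5 had a κB match, the fifth being Nfkbia with 1 at 31 to 22 bases upstream. Icam1 and Ptgs2 had no exact match in these windows. The Icam1 window does hold tggaaattcc, which departs from the consensus only at its first base, so it is not a window without any κB-like site. Of all 33469 windows of this length in the table, 6.33% held a match. Since the members were picked as NF-kB targets, this share describes the choice. The motif CACCC, the core of the box bound by KLF factors, was found on either strand in 4 of the 7 windows, those of Il6, Cxcl1, Icam1 and Ptgs2, and in 49.2% of all windows. Ccl2 has no entry.

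Knockdown libraries held 181101876 to 224082309 counts each, and overexpression libraries 32693762 to 76138723. The 3 AdGFP libraries that got no PE differed from the rest of their table in low counts: only 539 to 776 genes had from 1 to 5 counts there, while the others had 1728 to 2022 such genes. Each comparison with AdGFP without PE, and each interaction with AdKlf2, rests on them. It is also given with each of them left out where that ends a call. No alternative leaves out all 3, so an effect of what they share was not tested. The comparison of AdKlf2 with AdGFP under PE does not use them as a group. Levels are in CPM, a gene's counts scaled to the same library size for all libraries, with TMM factors, which correct for differences in composition between libraries. CPM are not divided by transcript length, so levels are compared between groups for 1 gene. Between genes, CPM served only to choose Ccl2, the member of highest mean CPM, for the search for genes of like pattern. A gene was called when its p in edgeR's quasi-likelihood test, adjusted by the Benjamini-Hochberg method over all genes tested in that table, was under 0.05. All 8 members passed the filter on low counts in both tables. The level of Klf2 and markers of cardiomyocytes, endothelial cells, fibroblasts and leukocytes were not analysed here, since their IDs carry no names. Neither the knockdown, the overexpression nor the cell type was therefore checked, and in these bulk samples fewer cells of a type and less RNA per cell cannot be told apart.

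The first comparison asked whether loss of KLF2 changes these genes. Of the 8 members, 7 fell after knockdown without PE and the same 7 fell with PE, namely Il6, Ccl2, Cxcl1, Cxcl10, Icam1, Vcam1 and Nfkbia. Ptgs2, which encodes the inducible cyclooxygenase, did not pass the test in either. None rose. Of all 18173 genes tested, 26.8% were called lower and 27.2% higher without PE, and 28.2% lower and 26.1% higher with PE. The median log2 fold change of the 8 members was -0.42 without PE and -0.29 with PE, against -0.02 and -0.04 for all genes tested. With scaling by library totals in place of TMM factors the median of all genes moved to -0.22 and -0.31, the members' medians to -0.62 and -0.55, and genes called lower to 44.9% and 53.6%. Changes are given relative to a scaling under which the median of all tested genes lies near 0.

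**Figure D1:**
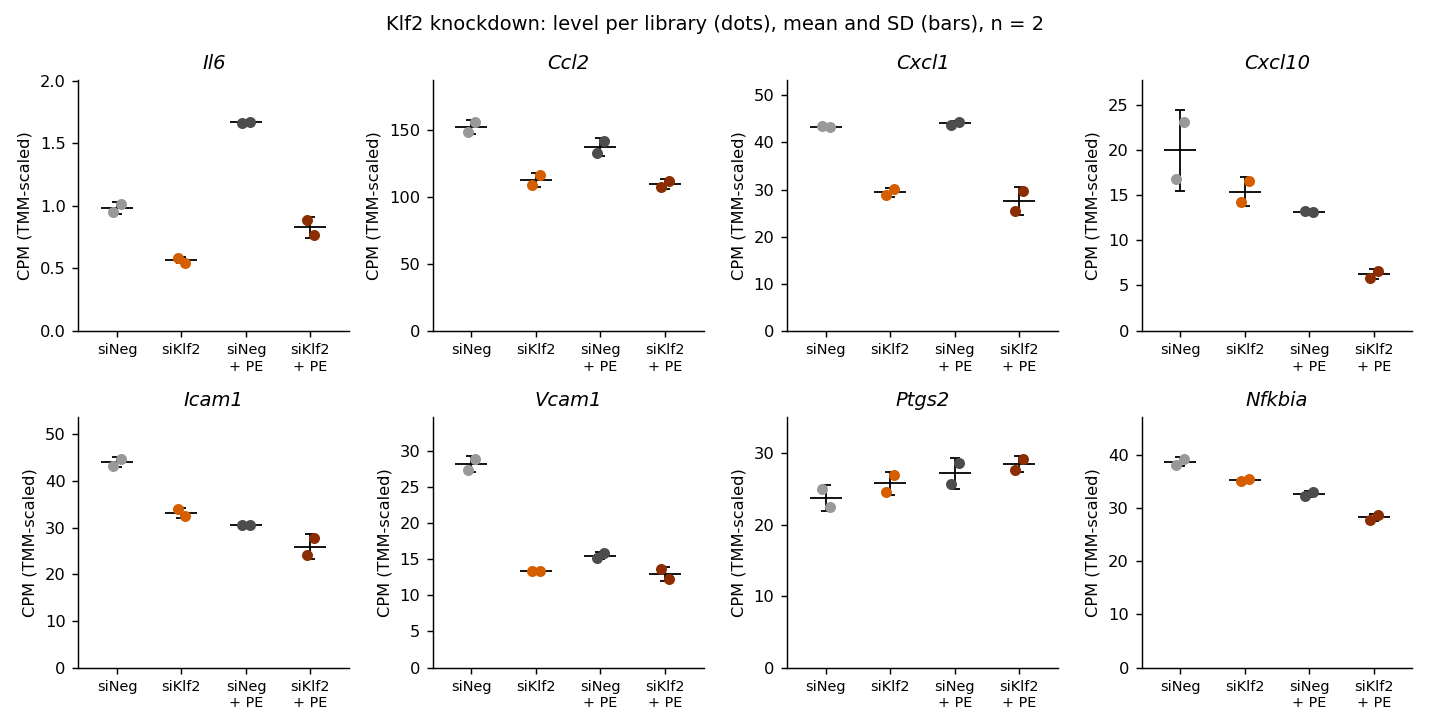
Level of each member in the knockdown libraries, in TMM-scaled CPM on linear axes from 0. Dots are libraries, wide ticks group means and thin bars the SD (n = 2 per group). For Vcam1 the siNeg libraries at 27.4 and 28.9 CPM stand above the other 6 libraries, which lie between 12.3 and 15.8 CPM.

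Vcam1 had the largest fall of the 8 without PE. It stood at 27.4 and 28.9 CPM in the siNeg libraries and at 13.4 CPM in each siKlf2 library. The groups were well apart, with a fold change of 2.09 lower (log2 fold change -1.07, SE 0.0555, edgeR adjusted p = 3.67e-08). With PE it was at 15.1 and 15.8 CPM in siNeg and at 13.7 and 12.3 CPM in siKlf2. There the fall was 1.19-fold (log2 fold change -0.25, SE 0.0564, edgeR adjusted p = 0.00284). This second call was lost without siKlf2 replicate 2 with PE, when the log2 fold change was -0.15, and the adjusted p over the 12 alternatives ranged from 5.59e-06 to 0.0664. Icam1, the partner adhesion molecule, was at 43.3 and 44.8 CPM in siNeg and at 34.0 and 32.4 CPM in siKlf2. Under PE its level was at 30.6 and 30.5 CPM against 24.1 and 27.8 CPM. Both falls passed, with log2 fold changes of -0.41 and -0.24 (edgeR adjusted p = 1.03e-04 and 0.00521). The second was -0.12 and no longer called without siKlf2 replicate 1 with PE, with an adjusted p of 1.14e-05 to 0.0746 over the alternatives.

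Among the secreted factors, Il6 fell in both conditions. It stood at 0.947 and 1.02 CPM in siNeg and at 0.583 and 0.545 CPM in siKlf2, from 207 and more counts in siNeg and 109 and more in siKlf2. With PE it stood at 1.66 and 1.67 CPM against 0.886 and 0.765 CPM. All 4 knockdown values were below all 4 control values. The log2 fold changes were -0.80 (SE 0.153, edgeR adjusted p = 9.93e-04) and -1.01 (SE 0.146, edgeR adjusted p = 1.24e-04).

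Cxcl1 was at 43.4 and 43.3 CPM in siNeg, and at 28.8 and 30.0 CPM in siKlf2. The PE-treated libraries were at 43.8 and 44.4 CPM against 25.4 and 29.6 CPM. The control values hardly spread, and the falls were 1.48-fold and 1.60-fold (edgeR adjusted p = 8.41e-06 and 1.83e-06). Ccl2 was at 149 and 156 CPM in siNeg and at 109 and 116 CPM in siKlf2. With PE it was at 133 and 142 CPM against 107 and 112 CPM. Its log2 fold changes were -0.44 and -0.33 (edgeR adjusted p = 8.14e-06 and 8.45e-05).

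Cxcl10, a chemokine induced by interferons as well as NF-kB, had its larger fall with PE. Without PE the siNeg libraries were at 16.8 and 23.1 CPM and the siKlf2 libraries at 14.2 and 16.6 CPM, so that the lower siNeg library almost touched the higher siKlf2 library. Its log2 fold change of -0.37 (edgeR adjusted p = 0.0243) shrank to -0.12 without siNeg replicate 2 and to -0.25 without siKlf2 replicate 1, and was -0.59 without siNeg replicate 1. In the first 2 cases, and in DESeq2, it was no longer called, and the adjusted p over the 12 alternatives was 7.40e-05 to 0.336. With PE the siNeg libraries were at 13.2 and 13.1 CPM and the siKlf2 libraries at 5.88 and 6.62 CPM. That fall was 2.11-fold (log2 fold change -1.07, SE 0.132, edgeR adjusted p = 3.37e-05).

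Nfkbia, the feedback inhibitor, changed least of the 7. It was at 38.1 and 39.3 CPM in siNeg against 35.1 and 35.5 CPM in siKlf2, and with PE at 32.2 and 33.0 CPM against 27.8 and 28.8 CPM. The falls were 1.10-fold and 1.15-fold (edgeR adjusted p = 0.00945 and 6.83e-04). The first was not called without siNeg replicate 2 (log2 fold change -0.11) or siKlf2 replicate 1 (log2 fold change -0.11), with an adjusted p of 1.53e-05 to 0.092 over the alternatives. Ptgs2 was at 25.0 and 22.5 CPM in siNeg and at 24.6 and 26.9 CPM in siKlf2, and with PE at 25.6 and 28.7 CPM against 27.6 and 29.2 CPM. Its groups overlapped in both cases. The log2 differences were 0.12 (95% interval -0.04 to 0.27) and 0.07 (95% interval -0.08 to 0.22), and with library totals alone they were -0.08 and -0.20, the latter called lower.

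The second comparison set AdKlf2 against AdGFP, for the effect of added KLF2 on the same genes. Ccl2, Cxcl1, Vcam1 and Ptgs2 fell with AdKlf2 both without and with PE. Icam1 was called lower without PE and not called with PE. Nfkbia was called higher without PE and lower with PE, while Il6 and Cxcl10 passed in neither. Thus 5 members fell and 1 rose without PE, and 5 fell and none rose with PE. Of all 16153 genes tested, 15.1% were called lower and 20% higher without PE, and 32.1% lower and 33.6% higher with PE. The median log2 fold change of the members was -0.47 and -0.40, against 0.00 and -0.03 for all genes tested. The tables share no library, and in them Ccl2, Cxcl1 and Vcam1 were lower than their own controls after both knockdown and overexpression. The share of all genes lower in both was not computed, so nothing is read from this overlap. After knockdown without and with PE, 21.6% and 28% of tested genes fell further than Ccl2, 16.8% and 14.2% than Cxcl1, and 6.64% and 32.4% than Vcam1. With AdKlf2 these shares were 26.1% and 39.3% for Ccl2, 8.78% and 22.5% for Cxcl1, and 8.31% and 6.73% for Vcam1.

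**Figure D2:**
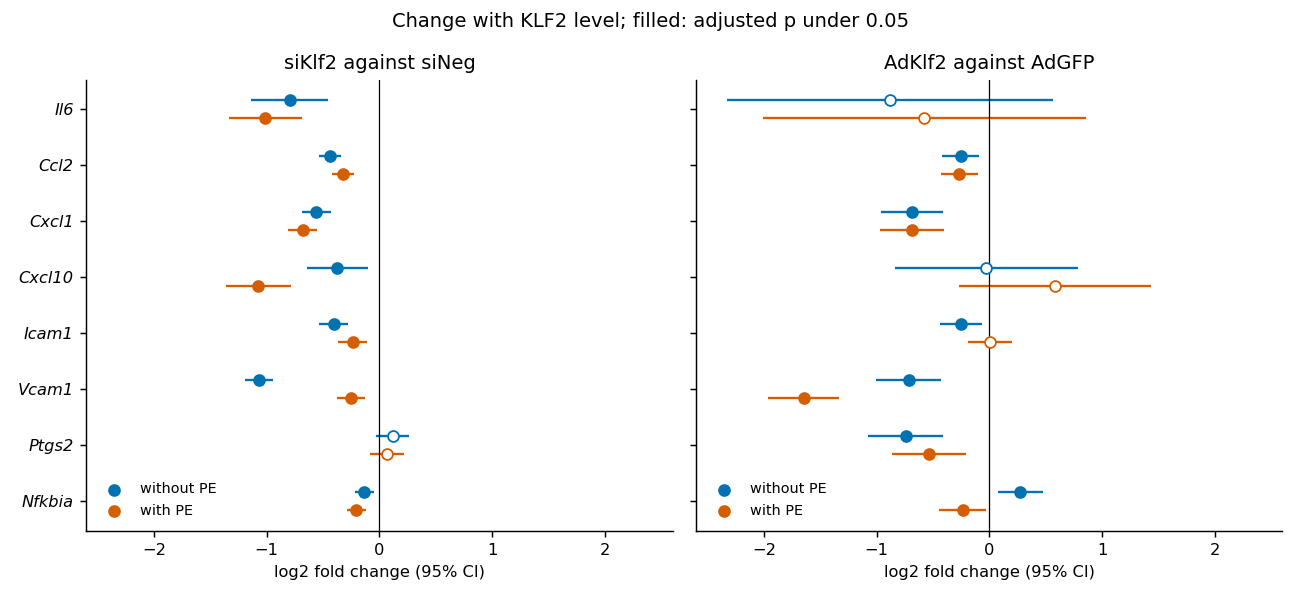
Log2 fold changes of the 8 members for siKlf2 against siNeg (left) and AdKlf2 against AdGFP (right), without PE in blue and with PE in orange. Lines are 95% intervals of each gene alone, filled points were called, and most called points lie left of 0 in both panels, the exception being Nfkbia with AdKlf2 without PE.

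Vcam1 had the largest called change of the members with PE and the second largest without PE, after Ptgs2. It was at 21.0, 19.0 and 17.8 CPM in AdGFP and at 12.2, 11.5 and 11.5 CPM in AdKlf2. Under PE it stood at 10.02, 9.40 and 10.2 CPM in AdGFP and at 2.96, 2.54 and 3.86 CPM in AdKlf2. The groups did not overlap in either condition. The fall was 1.64-fold without PE (log2 fold change -0.72, SE 0.136, edgeR adjusted p = 3.79e-04) and 3.13-fold with PE (log2 fold change -1.65, SE 0.149, edgeR adjusted p = 1.15e-08). Icam1 was at 39.8, 33.4 and 37.5 CPM in AdGFP and at 29.7, 33.1 and 30.3 CPM in AdKlf2, so that the groups were separated by a narrow gap. Its log2 fold change was -0.25 (edgeR adjusted p = 0.0355), and 7 of the 14 alternatives missed the threshold (adjusted p 0.0139 to 0.191). Among them were the fits without AdGFP replicate 1 or 3 (log2 fold changes -0.17 and -0.21) and without AdKlf2 replicate 1, 2 or 3 (log2 fold changes -0.19, -0.27 and -0.19). With PE, Icam1 was at 18.8, 18.7 and 20.3 CPM against 19.1, 18.4 and 20.5 CPM, with a log2 difference of 0.01 (95% interval -0.19 to 0.20). That interval excludes a fall as large as the one of Vcam1 in the same libraries.

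Cxcl1 was at 33.6, 22.0 and 22.9 CPM in AdGFP, where replicate 1 was high, and at 17.3, 16.2 and 15.2 CPM in AdKlf2. With PE it was at 24.7, 23.4 and 23.3 CPM against 14.7, 13.9 and 15.7 CPM. The falls were 1.61-fold in each condition (log2 fold change -0.69 in both, edgeR adjusted p = 4.22e-04 and 1.79e-04). Without AdGFP replicate 1 the first was -0.44 and still called. Ccl2 was at 69.1, 65.6 and 71.5 CPM in AdGFP against 60.9, 61.3 and 50.4 CPM in AdKlf2, and with PE at 64.2, 61.8 and 69.0 CPM against 56.8, 53.2 and 52.0 CPM. Its log2 fold changes were -0.26 and -0.27 (edgeR adjusted p = 0.015 and 0.00591). The first missed the threshold without AdGFP replicate 1 or 3 (log2 fold changes -0.23 and -0.20) or AdKlf2 replicate 3 (log2 fold change -0.13), and in limma voom. The second missed it without AdGFP replicate 3 with PE or AdKlf2 replicate 3 with PE (log2 fold changes -0.20 and -0.21). The adjusted p over the alternatives ranged from 0.00426 to 0.191 and from 3.08e-04 to 0.0578.

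Ptgs2, not called after knockdown, was lower with the Klf2 virus. It was at 13.2, 8.83 and 13.1 CPM in AdGFP and at 7.24, 7.55 and 6.20 CPM in AdKlf2. In the presence of PE it was at 14.3, 14.6 and 15.8 CPM against 10.3, 11.6 and 9.06 CPM. The groups did not overlap, and the falls were 1.67-fold and 1.45-fold (edgeR adjusted p = 0.00109 and 0.00542). Nfkbia was at 27.9, 27.0 and 23.5 CPM in AdGFP and at 32.6, 29.4 and 32.9 CPM in AdKlf2, which is 0.27 on the log2 scale (SE 0.0965, edgeR adjusted p = 0.0336). With PE the order was the other way round, at 21.3, 20.2 and 18.2 CPM against 16.4, 18.1 and 16.2 CPM, which is -0.24 on the log2 scale (SE 0.0997, edgeR adjusted p = 0.0452). The rise was lost without AdGFP replicate 3 (log2 fold change 0.23) or AdKlf2 replicate 1 or 3 (log2 fold changes 0.28 and 0.28), with library totals alone (0.24) and in the fit of the compared groups (0.27). The fall was lost without AdGFP replicate 1 or 2 with PE (log2 fold changes -0.16 and -0.21) or AdKlf2 replicate 1 or 3 with PE (log2 fold changes -0.19 and -0.18), as well as with RLE factors, without the filter and in DESeq2. The adjusted p over the alternatives was 0.0167 to 0.0903 for the rise and 0.00775 to 0.236 for the fall.

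Il6 and Cxcl10 were called in neither condition in this table. Il6 rested on 22, 32 and 50 counts in AdGFP and on 26, 12 and 4 in AdKlf2, and with PE on 20, 28 and 24 against 32, 14 and 27. In CPM it was at 0.381, 0.491 and 0.843 against 0.531, 0.266 and 0.116, and with PE at 0.565, 0.860 and 0.625 against 0.464, 0.439 and 0.466. The 95% intervals of its log2 fold changes, -2.33 to 0.57 and -2.01 to 0.86, include the falls seen after knockdown as well as a rise, so a difference of that size was not detectable in these libraries. Cxcl10 was at 1.35, 2.54 and 2.50 CPM in AdGFP and at 2.98, 2.04 and 1.22 CPM in AdKlf2, and with PE at 0.791, 1.04 and 1.28 CPM against 1.25, 1.82 and 1.62 CPM. Its intervals were -0.84 to 0.79 and -0.27 to 1.43, and the second excludes a fall as large as that of 1.07 after knockdown with PE.

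**Figure D3:**
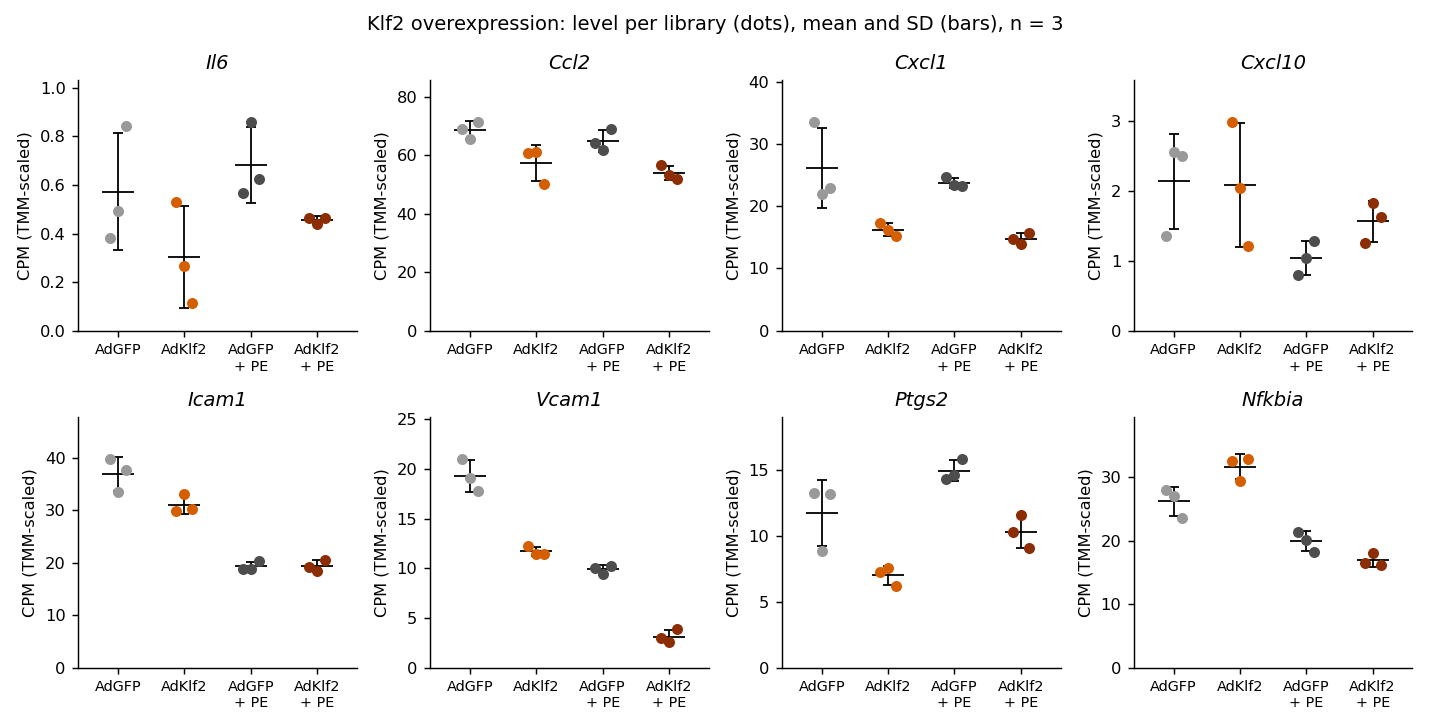
Level of each member in the overexpression libraries, in TMM-scaled CPM on linear axes from 0, with dots for libraries, wide ticks for means and thin bars for the SD (n = 3 per group). Vcam1 steps down from 19.3 CPM in AdGFP to 3.12 CPM in AdKlf2 with PE, whereas the Il6 and Cxcl10 libraries without PE overlap widely.

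The response of these genes to PE itself was compared within each arm. PE is a growth stimulus, and under it the adhesion molecules and the inhibitor fell in the control cells of both tables, while no member rose in both. In siNeg, 5 members fell (Ccl2, Cxcl10, Icam1, Vcam1 and Nfkbia) and 2 rose (Il6 and Ptgs2), against 24.3% and 24.8% of all tested genes. In AdGFP, 3 fell (Icam1, Vcam1 and Nfkbia) and none rose, against 16.3% and 18.3%. In siKlf2, 3 fell (Cxcl10, Icam1 and Nfkbia) and 1 rose (Il6), against 23.7% and 24.4%. In AdKlf2, 3 fell (Icam1, Vcam1 and Nfkbia) and 1 rose (Ptgs2), against 29.6% and 31.6%. With library totals alone, genes called lower with PE became 33.7%, 26.9%, 40.8% and 38.5% of those tested in siNeg, AdGFP, siKlf2 and AdKlf2. The medians of all genes moved to -0.12, -0.15, -0.19 and -0.21. The members called then numbered 5 lower and 1 higher in siNeg, 5 lower in AdGFP, 6 lower in siKlf2 and 5 lower in AdKlf2.

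**Figure D4:**
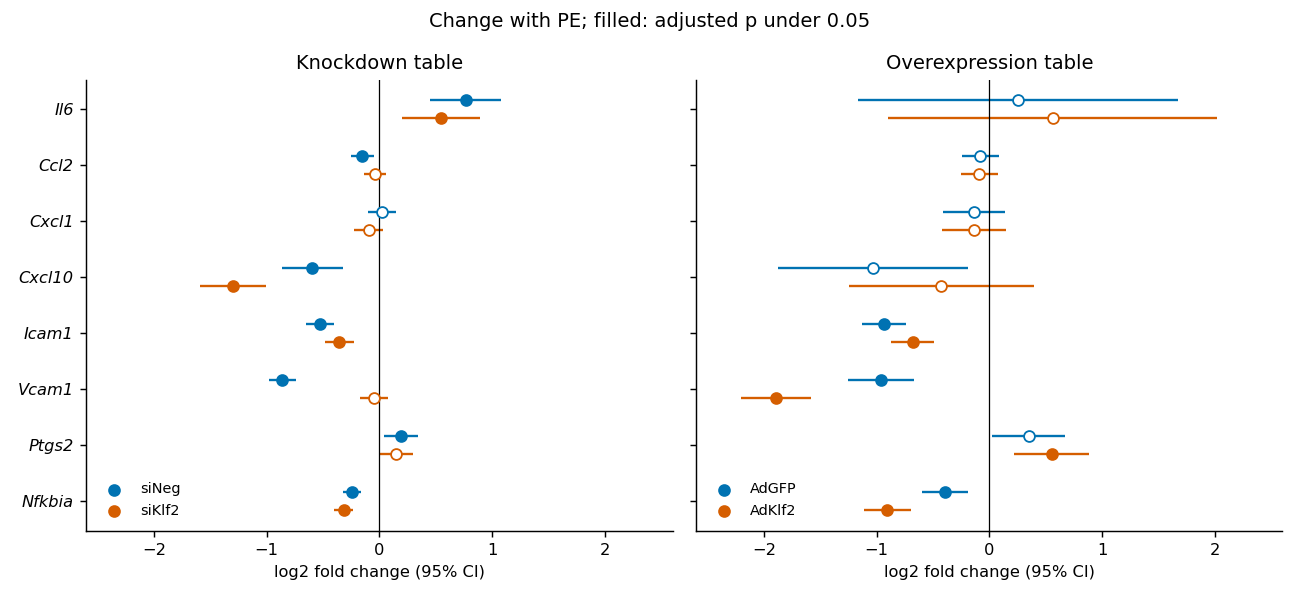
Log2 fold changes of the members with PE in siNeg and siKlf2 (left) and in AdGFP and AdKlf2 (right), control arms in blue and altered arms in orange. Lines are 95% intervals of each gene alone and filled points were called. Within each panel the 2 arms part most for Vcam1. Under TMM scaling it is at -0.86 in siNeg against -0.05 in siKlf2, and at -0.96 in AdGFP against -1.90 in AdKlf2.

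Icam1 fell with PE in all 4 arms, from means of 44.1 to 30.6 CPM in siNeg, 33.2 to 25.9 CPM in siKlf2, 36.9 to 19.3 CPM in AdGFP and 31.0 to 19.4 CPM in AdKlf2. The log2 fold changes were -0.53, -0.36, -0.94 and -0.68 (edgeR adjusted p = 1.49e-05, 3.73e-04, 2.11e-07 and 2.81e-06). Nfkbia also fell in all 4, by 1.19-fold in siNeg, 1.25-fold in siKlf2, 1.32-fold in AdGFP and 1.87-fold in AdKlf2 (edgeR adjusted p = 1.74e-04, 2.75e-05, 0.00404 and 1.94e-07). Both genes kept these calls in all alternatives, though for AdGFP none leaves out all libraries without PE. Il6 rose 1.70-fold in siNeg (log2 fold change 0.76, SE 0.142, edgeR adjusted p = 8.73e-04) and 1.46-fold in siKlf2 (log2 fold change 0.55, SE 0.158, edgeR adjusted p = 0.0136). The second rise was lost without siKlf2 replicate 2 or siKlf2 replicate 1 with PE (log2 fold changes 0.50 and 0.45) and with library totals alone (0.38), with an adjusted p of 0.0108 to 0.0773 over the alternatives. Its log2 difference was 0.26 in AdGFP (95% interval -1.16 to 1.67) and 0.56 in AdKlf2 (95% interval -0.90 to 2.02), neither called.

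Ptgs2 had positive log2 differences with PE in all 4 arms, 0.19 in siNeg, 0.14 in siKlf2, 0.35 in AdGFP and 0.55 in AdKlf2. The first and the last passed (edgeR adjusted p = 0.0365 and 0.00567). In siNeg the call was lost without siNeg replicate 2 or siNeg replicate 2 with PE (log2 differences 0.12 and 0.11), with library totals alone (0.09) and in the fit of the 2 compared groups (0.20), and its adjusted p over the alternatives was 0.00255 to 0.261. In siKlf2 the sign changed with library totals alone, to -0.03, while 3 of the 12 alternatives called a rise. These were the fit without the filter (0.14), DESeq2 (0.16) and the fit of the compared groups (0.14). In AdGFP a rise was called in limma voom (0.41), and in AdKlf2 the call was lost with library totals alone (0.36). Cxcl10 fell 1.51-fold in siNeg and 2.46-fold in siKlf2 (edgeR adjusted p = 0.00182 and 8.41e-06). Without siNeg replicate 2 the first was -0.35 on the log2 scale in place of -0.60, still called. In AdGFP its log2 difference was -1.04 (95% interval -1.88 to -0.19, edgeR adjusted p = 0.0539), and it was called in 4 of 14 alternatives, among them the fit without AdGFP replicate 1 (log2 fold change -1.29; adjusted p over the alternatives 0.0156 to 0.163). In AdKlf2 it was -0.43 (95% interval -1.25 to 0.40) and not called, except in limma voom (-0.65).

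The neutrophil chemokine Cxcl1 was not called with PE in the 4 arms under TMM scaling, and the monocyte chemokine Ccl2 was called in siNeg. The log2 difference of Cxcl1 was 0.03 in siNeg (95% interval -0.10 to 0.15), -0.09 in siKlf2 (-0.22 to 0.03), -0.14 in AdGFP (-0.41 to 0.14) and -0.14 in AdKlf2 (-0.42 to 0.15). In siKlf2 it was called lower without siKlf2 replicate 2 with PE (log2 fold change -0.19). With library totals alone it was called lower in siKlf2 (-0.27, edgeR adjusted p = 0.00177) and AdKlf2 (-0.33, edgeR adjusted p = 0.0372). Ccl2 fell 1.11-fold in siNeg (edgeR adjusted p = 0.0152, and 1.89e-04 to 0.141 over the alternatives), a call lost without siNeg replicate 2 or siNeg replicate 1 with PE (log2 fold changes -0.11 and -0.10). Elsewhere its log2 differences were -0.04, -0.08 and -0.09 in siKlf2, AdGFP and AdKlf2, and the last was called at -0.20 without AdKlf2 replicate 3. With library totals alone Ccl2 was called lower in all 4 arms.

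The next test asked whether the KLF2 level alters the PE response, as an interaction: the PE response in the altered arm minus that in the control arm. With siKlf2, 1 of the 8 members had a called positive interaction (Vcam1) and 1 a negative one (Cxcl10), against 7.08% and 7.35% of all tested genes. With AdKlf2 none had a positive and 2 had a negative one (Vcam1 and Nfkbia), against 25.1% and 24%. Scaled by library totals alone, 24.2% in place of 49.1% of all called interactions with siKlf2 were positive, and the members called stayed 1 and 1. Vcam1 was the member called in both, in opposite directions. PE lowered it 1.82-fold in siNeg, and in siKlf2 the log2 difference was -0.05 (95% interval -0.17 to 0.08), giving an interaction of 0.82 (SE 0.079, edgeR adjusted p = 7.32e-05). PE lowered it 1.95-fold in AdGFP and 3.72-fold in AdKlf2, giving an interaction of -0.93 (SE 0.201, edgeR adjusted p = 7.25e-04). Both interactions passed in all alternatives, 15 and 19. Each of the 19 keeps AdGFP libraries without PE, which differed in low counts. The response in siKlf2 itself was called lower with library totals alone (-0.22, edgeR adjusted p = 0.00713) and was 0.05 without siKlf2 replicate 2 with PE. In levels, siKlf2 cells without PE, at 13.4 CPM, were close to siKlf2 cells with PE, at 13.0 CPM, and these 2 groups overlapped. In the overexpression table AdGFP was highest, then AdKlf2, then both PE groups with AdKlf2 the lower, and no neighbours in this order overlapped.

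Cxcl10 had a larger fall with PE in siKlf2 than in siNeg, with an interaction of -0.70 (SE 0.18, edgeR adjusted p = 0.0238). That call was lost without siKlf2 replicate 2, siKlf2 replicate 1 with PE or siKlf2 replicate 2 with PE (log2 differences -0.59, -0.61 and -0.78) and in limma voom (-0.72), with an adjusted p of 3.70e-06 to 0.126 over the 15 alternatives. Its interaction with AdKlf2 was 0.61 (95% interval -0.57 to 1.79) and not called. Nfkbia had a larger fall with PE in AdKlf2 than in AdGFP. Its interaction was -0.51 (SE 0.139, edgeR adjusted p = 0.00484), called in all 19 alternatives, each of which keeps AdGFP libraries without PE. For Il6, Ccl2, Cxcl1, Icam1 and Ptgs2 the interaction was not called in either table, and the 95% intervals of Il6, -0.68 to 0.25 with siKlf2 and -1.72 to 2.33 with AdKlf2, leave a wide range. Those of Ccl2 were -0.03 to 0.25 and -0.24 to 0.22. Icam1 and Cxcl1 with siKlf2 were called in 1 alternative each, at 0.28 without siKlf2 replicate 1 with PE and at -0.22 without siKlf2 replicate 2 with PE.

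The levels could be ordered within a table. In the knockdown table Ccl2 and Cxcl1 had both siNeg groups above both siKlf2 groups, and the siKlf2 groups overlapped each other. Icam1 and Nfkbia ran from siNeg through siKlf2 and siNeg with PE to siKlf2 with PE without overlap of neighbours. Il6 was highest in siNeg with PE and lowest in siKlf2 without PE, whereas the groups of Ptgs2 overlapped along the whole order. In the overexpression table the PE groups of Icam1 overlapped and lay below the others, and Cxcl1 and Ccl2 again had both control groups above both AdKlf2 groups.

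Over the 20 libraries, with log2(CPM + 1) centred within each table, the gene most like Ccl2 was ENSRNOG00000007110 with a Pearson r of 0.905, followed by ENSRNOG00000066650 with 0.904, out of 15943 genes compared. Among the members, Cxcl1 was the nearest to Ccl2 with 0.856 and Nfkbia the farthest with 0.271. Icam1 was closest to Nfkbia, with 0.807, and to Vcam1, with 0.796. These values describe likeness only, since libraries of a group share their treatment and all genes of a library share its scaling.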

How the data were processed

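RNA was measured in 20 libraries. Per the submitters' processing notes, reads were processed with Trim Galore, STAR and featureCounts on build mRatBN7.2, and the authors deposited raw counts per Ensembl ID in 2 tables. The versions, annotation release and strand setting are not given in the sources used here. Even values made up 59.8% to 82.2% of counts between 1 and 20 in the libraries, so both mates of a fragment may have been counted, and halved counts were tried. The deposited CUT&Tag peaks were not used here, because the reference at hand is on another build.

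Each table was fitted with edgeR 4.0.16 in R 4.3.3 after filterByExpr (minimum count 10, minimum total 15), which left 18173 and 16153 genes. The fit used TMM factors and 1 coefficient per group for all 4 groups. P-values are two-sided. A standard error is the log2 fold change divided by the root of its F statistic, and intervals are not adjusted for the number of genes. Calls used an adjusted p under 0.05. The procedure was run on simulated counts with known changes in some genes, drawn independently at the fitted spread, with all others unchanged. The simulation did not cover tables in which many genes change, or replicates that are only technical. Alternatives were RLE factors, library totals, no filter, DESeq2 1.42.0, limma 3.58.1 voom with quality weights, a replicate block, fits of the compared groups alone, halved counts and leaving out each library. When a knockdown group kept 1 library, its spread was assumed to be that of the other groups. Precision depends on depth and on the spread between libraries, given by edgeR's common dispersion as a coefficient of variation of 0.049 (knockdown) and 0.132 (overexpression). Total counts are given with the results.

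All 8 members are named, whatever their values, with the 2 IDs most like the member of highest mean CPM. The members and lists were chosen with earlier results of these data known. Lists of further NF-kB genes, interferon genes, receptors and cell type markers could not be used, as no table pairs the IDs with symbols. Promoters were matched by symbol. Figures were made with matplotlib 3.10.9 in Python 3.11.15.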

Additional observations from a re-analysis of the deposited data

Results flagged for a closer look

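The response to PE differed between arms, by the test of that difference, for 3 members in 4 cases. Vcam1 had an interaction of 0.82 on the log2 scale with siKlf2 and of -0.93 with AdKlf2. Cxcl10 had an interaction of -0.70 with siKlf2, and Nfkbia one of -0.51 with AdKlf2. The Cxcl10 call was not kept in all alternatives, and those with AdKlf2 rest on the AdGFP libraries without PE. Of all tested genes, 7.08% had a called positive and 7.35% a called negative interaction with siKlf2. With AdKlf2 these shares were 25.1% and 24%. In size, 15.1% of tested genes had a more negative interaction with AdKlf2 than Vcam1, and 27.2% a more negative one than Nfkbia. With siKlf2, 3.83% had a more positive one than Vcam1 and 5.78% a more negative one than Cxcl10. No group held enough libraries for the check for a library far from the others of its group, which needs 4 or more.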

How the results depend on the processing

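The 8 members gave 80 log2 differences over 10 comparisons and 1104 values under the alternatives. Of these, 994 kept the direction and the side of the threshold, 46 lost a call, 19 gained one and 45 changed sign, none of them a value called in the reported fit. The cause was not tested. With library totals alone, the log2 differences of Ptgs2 became -0.081 for siKlf2 without PE, -0.20 for siKlf2 with PE and -0.027 for PE in siKlf2. That of Cxcl1 for PE in siNeg became -0.077 and its interaction with AdKlf2 -0.058, and Icam1 for AdKlf2 with PE became -0.093. The members called for PE in AdGFP rose from 3 to 5 with this scaling. Without the filter, Cxcl10 for AdKlf2 without PE was at 0.0003, Icam1 for AdKlf2 with PE at -0.0094 and the Cxcl1 interaction with AdKlf2 at -0.041. With limma voom these were 0.13 for Cxcl10 and -0.035 for the Cxcl1 interaction, and 1 member rather than 2 had a called interaction with siKlf2. With halved counts, Icam1 for AdKlf2 with PE was at -0.0072 and the Cxcl1 interaction at -0.0062. The Ccl2 interaction with AdKlf2 was 0.037 both with RLE factors and in DESeq2.

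Over all genes, replicate numbers gave little sign of pairing the libraries. Ccl2 and Nfkbia were higher in replicate 2 than in replicate 1 in every knockdown group, and the other members were not. The correlations below do not settle whether libraries were paired. Same-numbered libraries of different groups had correlations of deviations of -0.146 to 0.237 in the knockdown and -0.108 to 0.0789 in the overexpression table. With the number as a replicate block, Cxcl10 for AdKlf2 without PE was at 0.018 and the Cxcl1 interaction with AdKlf2 at -0.012, and no call of a member changed.

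With each library left out in turn, the members called numbered 3 to 6 for AdKlf2 without PE, 3 to 5 for AdKlf2 with PE and 1 to 2 for the interaction with siKlf2. All genes called numbered 4815 to 5786 for AdKlf2 without PE and 9862 to 10062 with PE. With all libraries they were 5672 and 10625 of the 16153 tested. The lowest numbers of members came without AdGFP replicate 3 or AdKlf2 replicate 3, without AdKlf2 replicate 3 with PE, and, for the interaction with siKlf2, without siKlf2 replicate 2. All genes with that interaction numbered 1553 (without siNeg replicate 2) to 3312, against 2622 with all libraries. Values that crossed 0 ranged from -0.011 to 0.15 (Ptgs2, siKlf2 with PE), -0.13 to 0.033 (Ptgs2, interaction with siKlf2), -0.35 to 0.27 (Cxcl10, AdKlf2 without PE), -0.012 to 0.062 (Icam1, AdKlf2 with PE) and -0.25 to 0.068 (Cxcl1, PE in AdGFP). For PE in siKlf2 they ranged from -0.071 to 0.0068 (Ccl2), -0.19 to 0.021 (Cxcl1) and -0.11 to 0.046 (Vcam1). For the interaction with AdKlf2 they ranged from -0.086 to 0.96 (Il6), -0.12 to 0.027 (Ccl2) and -0.23 to 0.10 (Cxcl1). The peaks near members and their alternatives were not run.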
